A study of Danio rerio with 6 samples.

Results

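Vitellogenins are the large lipid- and phosphate-carrying precursors of egg yolk. In egg-laying vertebrates the liver of females makes and secretes them into the blood, and growing oocytes take them up and cleave them into yolk proteins. Their transcription in hepatocytes is switched on by oestrogen acting through nuclear oestrogen receptors, and the gene for one of these receptors, esr1, is itself induced by oestrogen in fish liver, which makes this set of genes a widely used readout of oestrogen action in fish.

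The genes described are the 10 rows of a zebrafish liver count table that carry the symbols vtg1, vtg2, vtg3, vtg4, vtg5, vtg6, vtg7, esr1, esr2b and fam20cl. They are 10 of 30954 named genes, all 10 symbols were in the table, and all 10 passed the filter on low counts. The study set livers of CRISPR-Cas9 knockouts of scd (the mutants, 3 libraries) against livers of wild-type (WT) zebrafish (3 libraries). The fish of both groups were kept in water at 28 °C, and the total RNA was taken from liver. The scd gene encodes stearoyl-CoA desaturase, which makes monounsaturated from saturated fatty acyl-CoA. Sex, age, strain, the allele, the number of mutant lines, feeding state and any pooling of fish are not stated in the sources used here, so the p-values measure only the spread between these libraries, which may be technical in part. In bulk tissue, fewer cells of a type and less RNA per cell cannot be told apart.

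The libraries held between 22525340 and 25852954 counts in named genes. The targeted gene stood at 691.5, 110.3 and 56.6 CPM in mutant replicates 1 to 3, against 30.3, 18.1 and 430 CPM in WT replicates 1 to 3, so its transcript level neither separates the genotypes nor checks the labels. Levels here are counts per 1e+06 counts (CPM) with edgeR's TMM scaling, unless stated. Mutant replicate 3 stood apart from the other 5 libraries. Its scaling factor was 2.95, against 0.632 to 1.07 in the others, and vitellogenin was nearly missing from it, so it is given separately below. The 12 hepatocyte markers were present in it, summing to 54700 CPM against 44240 to 99560 CPM in the other 5 libraries, with none of the 12 at 0. Of the 12, 4 were lowest in it under TMM (tfa, serpina1, ambp and rbp4). The retinol-binding protein gene rbp4 stood at 241 CPM in it, 9.91-fold below the lowest of the other 5 libraries, which held 2391 to 4460 CPM. The marker with the most counts, tfa (transferrin), stood at 25890, 13550 and 10430 CPM in mutant replicates 1 to 3, against 23910, 23210 and 28860 CPM in WT replicates 1 to 3. The 7 erythrocyte markers summed to 2248 CPM in it, against 171 to 347 CPM in the others. Of the 9 testis markers 3 had no count in it, and the 9 summed to 0.228 CPM, against 0.336 to 2.53 CPM. These levels are near the floor in every library, so the sum says little. Of those 3 markers tssk6 had no count in any library, and gsdf alone held 2.19 of the 2.53 CPM in WT replicate 3. The 9 exocrine pancreas markers summed to 334 CPM in mutant replicate 3, against 134.5 to 1362 CPM in the others. These marker values are under TMM, and without the scaling factor those of mutant replicate 3 stand higher against the other libraries. Whether these differences bear on the vitellogenin level of mutant replicate 3 was not tested.

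Vitellogenin transcripts made up 57.3%, 57.3% and 0.0434% of named counts in mutant replicates 1, 2 and 3, against 44.1%, 51.0% and 49.8% in WT replicates 1, 2 and 3. The mean was 38.2% ± 33.0 in mutants and 48.3% ± 3.68 in WT (SD, n = 3 each), and an exact two-sided permutation test gave p = 1. Mutant replicates 1 and 2 were above every WT library, and mutant replicate 3 was below every WT library, so the groups were not separated in either direction. Without mutant replicate 3 the mutant mean was 57.3% ± 0.0138 (SD, n = 2), 8.98 percentage points above WT. With 2 libraries against 3 the exact test gave p = 0.2, the smallest two-sided p it allows. Mutant replicate 3 was left out because it lacks vitellogenin, so this comparison is a description and no independent test. Even in mutant replicate 3 the 7 copies together had 10310 counts, with between 239 (vtg6) and 5424 (vtg5) for a copy. The source of these few counts was not tested.

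The copy with the most counts in each of the 5 libraries rich in vitellogenin was vtg1. Its level was 603400, 239000 and 40.4 CPM in mutant replicates 1 to 3, against 248400, 374800 and 404500 CPM in WT replicates 1 to 3. Under TMM, mutant replicates 1 and 2 lay at the top and at the bottom of these 5 libraries, with all WT libraries between them. This order depended on the scaling. As CPM of named counts vtg1 stood at 381600 and 254700 in mutant replicates 1 and 2, against 230100, 282900 and 290500 in WT replicates 1 to 3, so mutant replicate 2 was above WT replicate 1. As CPM of counts without vitellogenin it stood at 892900 and 596300 in mutant replicates 1 and 2, against 411600, 577400 and 578600 in WT, with both mutants above all WT libraries.

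The copies vtg2, vtg3, vtg4 and vtg5 were even among these 5 libraries under TMM, the scale of the values that follow, with a highest level between 1.44 and 1.5 times the lowest. The level of vtg2 was 85700, 61370 and 8.48 CPM in the mutants, against 57530, 78450 and 67140 CPM in WT. That of vtg4 was 66820, 53630 and 7.49 CPM in the mutants, against 49350, 62450 and 72380 CPM in WT. Mutant replicate 1 was above the WT range for vtg2 and within it for vtg4, and mutant replicate 2 was within it for both.

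The copy vtg5 had the most counts left in mutant replicate 3, 5424 of 10310. It stood at 101000, 90230 and 77.2 CPM in the mutants, against 70130, 91650 and 81680 CPM in WT. The copy vtg3, which in zebrafish encodes a vitellogenin without the serine-rich phosvitin domain, stood at 9215, 11510 and 5.94 CPM in the mutants, against 8316, 12480 and 9414 CPM in WT. Mutant replicate 1 was above the WT range for vtg5, and both vitellogenin-rich mutant libraries were within it for vtg3.

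The copies vtg6 and vtg7 were less even. The level of vtg6 was 19790, 50820 and 3.40 CPM in the mutants, against 12500, 31020 and 19800 CPM in WT. That of vtg7 was 19640, 30910 and 3.86 CPM in the mutants, against 29960, 24670 and 38320 CPM in WT. Among the 5 libraries the highest level of vtg6 was 4.07 times the lowest, more than for any other copy. Replicate 2 was the highest library of its own group for vtg6, in mutants and in WT.

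**Figure D1:**
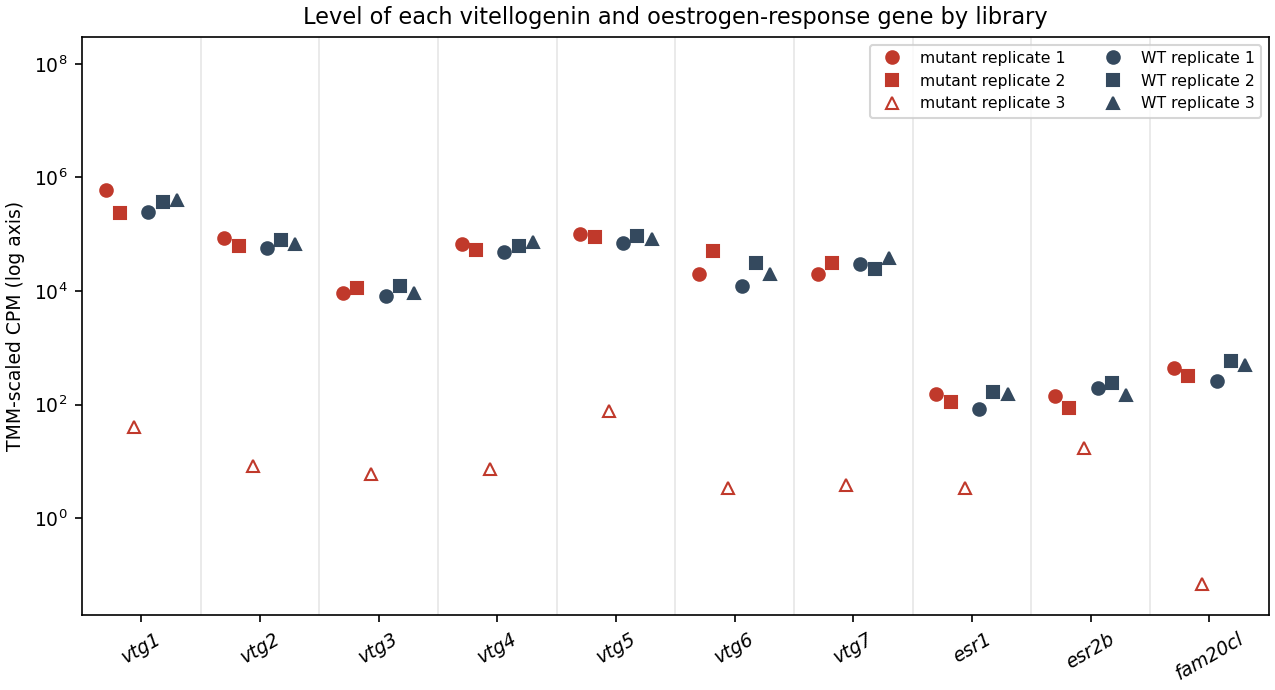
Level of each gene in each library, as TMM-scaled CPM on a log axis, with mutant libraries in red left of WT libraries in dark blue and mutant replicate 3 as an open triangle. The 5 filled symbols of a gene lie close together, and mutant replicate 3 lies below them for all 10 genes, at 77.2 CPM for vtg5 and 0.0712 CPM for fam20cl.

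The 2 oestrogen receptors of the set differed from each other in mutant replicate 3. The receptor esr1, the one most tied to vitellogenin induction in fish liver, stood at 152, 112 and 3.42 CPM in mutant replicates 1 to 3, against 85.4, 169.7 and 156 CPM in WT replicates 1 to 3. Mutant replicates 1 and 2 fell within the WT range, and mutant replicate 3 was 25.0-fold below the lowest other library. The receptor esr2b, an oestrogen receptor beta of zebrafish, stood at 144, 88.4 and 17.6 CPM in the mutants, against 199.6, 243.8 and 146.5 CPM in WT. All 3 mutant libraries were below all 3 WT libraries, as for 12.8% of all genes, though mutant replicate 1 and WT replicate 3 were nearly level. Mutant replicate 3 was 5.02-fold below the lowest other library. The ratio of esr1 to esr2b counts, which does not depend on scaling, was 1.06, 1.27 and 0.194 in the mutants, against 0.428, 0.696 and 1.06 in WT.

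The gene fam20cl belongs by name to the FAM20 family. In mammals FAM20C is the kinase that phosphorylates many secreted proteins on their way through the Golgi. The level of fam20cl was 443, 326 and 0.0712 CPM in mutant replicates 1 to 3, against 259, 580 and 503 CPM in WT replicates 1 to 3. Both vitellogenin-bearing mutant libraries lay inside the WT range, and the value in mutant replicate 3 came from 5 counts. Set against the vitellogenin of the same library, these 5 counts were 0.485 per 1000 vitellogenin counts (95% exact Poisson interval 0.157 to 1.13, counting error only), and the other 5 libraries had 0.489 to 0.859. The same ratio for esr1 was 23.28 per 1000 in mutant replicate 3, against 0.168 to 0.251 in the other 5 libraries.

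The gap between mutant replicate 3 and the other libraries was not the same for every copy. Under TMM the copies lay between 908-fold (vtg5) and 6780-fold (vtg2) below the lowest other library, with vtg3 at 1400-fold, vtg6 at 3670-fold, vtg7 at 5090-fold, vtg1 at 5920-fold and vtg4 at 6590-fold. The gene fam20cl, at 3640-fold, lay within the span of the vitellogenins. As CPM of named counts, without a scaling factor, these values were 257-fold for vtg5, 332-fold for vtg3, between 1090-fold and 1930-fold for the other 5 copies, 1140-fold for fam20cl, 7.84-fold for esr1 and 1.75-fold for esr2b. All 10 genes were lowest in mutant replicate 3 on both scales, and 9 of 10 were at least 10-fold below the lowest other library under TMM. Over all 12889 genes tested, 24.2% were lowest in mutant replicate 3 and 0.559% were at least 10-fold below. Mutant replicate 3 was set apart because it lacks vitellogenin, so these counts of genes are a description and carry no test.

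The mix of copies in mutant replicate 3 differed from that of every other library. There vtg5 made up 52.6% of vitellogenin counts (95% exact binomial interval 51.6 to 53.6) and vtg1 27.5% (26.7 to 28.4), whereas in the other 5 libraries vtg5 made up 11.2% to 16.8% and vtg1 44.5% to 66.6%. The share of vtg3 was 4.05% (3.67 to 4.44), against 1.02% to 2.14%. The shares of vtg2 and vtg4 were 5.78% and 5.10%, against 9.46% to 12.1% and 7.38% to 10.4%. Those of vtg6 and vtg7, 2.32% and 2.63%, were inside the range of the other libraries. The intervals cover counting error only.

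Mutant replicates 1 and 2 had nearly equal totals and different mixes. In mutant replicate 1, vtg1 made up 66.6%, vtg6 2.19% and vtg7 2.17% of vitellogenin counts. In mutant replicate 2, vtg1 made up 44.5%, vtg6 9.46% and vtg7 5.75%. The WT libraries lay between these values for vtg1, at 52.2%, 55.5% and 58.4%, and for vtg6, at 2.63%, 4.59% and 2.86%.

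Between the genotypes no share was called by the exact two-sided permutation test over all 6 libraries. The share of vtg1 was 46.2% ± 19.6 in mutants and 55.3% ± 3.10 in WT (SD, n = 3 each, exact permutation p = 0.6), and that of vtg5 was 26.9% ± 22.5 in mutants and 13.4% ± 1.48 in WT (exact permutation p = 0.5). The smallest p was 0.2, for vtg2 and vtg4, and adjusted over the 7 copies no value was below 0.7. With 3 libraries against 3 this test cannot go below 0.1. The copies are close relatives, and the treatment of reads that map to more than 1 copy is not stated in the sources used here, so the split of counts between copies is uncertain.

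**Figure D2:**
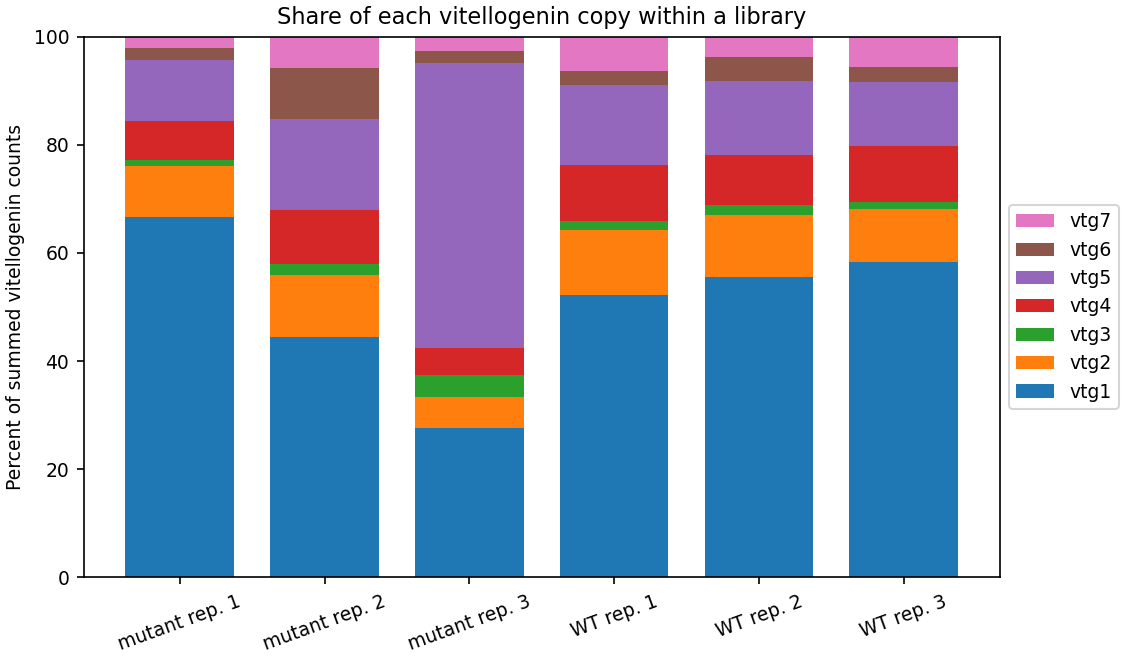
Percent of the summed vitellogenin counts that each of the 7 copies holds, 1 stacked bar per library, mutants left of WT. In mutant replicate 3 vtg5 holds 52.6%, and in the other 5 libraries it holds 11.2% to 16.8%.

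None of the 10 genes differed between the genotypes past the threshold in all 6 libraries (edgeR quasi-likelihood test, adjusted p under 0.05). In that comparison 0.241% of 12889 genes were called, 0.116% higher and 0.124% lower in mutants. At an unadjusted p under 0.05, 0 of the 10 passed, where 19.1% of all genes did (10.8% higher and 8.29% lower in mutants), and DESeq2's Wald test and limma-voom also called 0. The vitellogenins had log2 fold changes, mutant over WT, between -0.88 ± 1.85 for vtg7 and 0.16 ± 1.92 for vtg6 (SE, adjusted p between 0.829 and 0.972). Their 95% intervals were wide, from -5.24 to 3.48 for vtg7 and from -4.38 to 4.70 for vtg6. The values were -0.62 ± 1.08 for esr1 (adjusted p = 0.792), -0.81 ± 1.86 for fam20cl (adjusted p = 0.844) and -1.24 ± 0.69 for esr2b (adjusted p = 0.366). The median over the 10 genes was -0.58, and over all genes tested it was 0.04. The near-absence of vitellogenin from mutant replicate 3 lowers the mutant mean in this fit. The median of the 10 genes is therefore a description and no sign of a genotype difference.

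Without mutant replicate 3 the intervals narrowed, as the library furthest from the rest was gone. It was left out with its vitellogenin level known. This fit therefore describes the other 5 libraries and is no independent test of vitellogenin. Again 0 of the 10 genes were called by edgeR, where 0.161% of 13027 genes were (0.0921% higher and 0.0691% lower in mutants). At an unadjusted p under 0.05, 0 of the 10 passed, where 17.2% of all genes did (8.6% higher and 8.59% lower in mutants). DESeq2's Wald test also called 0, with 1 (esr2b) at an unadjusted p under 0.05. The log2 fold changes were 0.28 ± 0.67 for vtg1, 0.10 ± 0.51 for vtg2, 0.03 ± 0.44 for vtg3, -0.04 ± 0.50 for vtg4, 0.22 ± 0.50 for vtg5, 0.73 ± 0.65 for vtg6 and -0.31 ± 0.51 for vtg7 (SE, adjusted p between 0.592 and 0.980). The 95% interval was -1.35 to 1.90 for vtg1 and -1.04 to 1.09 for vtg3. Differences inside these bounds thus remain possible with 2 libraries against 3. For vtg1, vtg2, vtg3 and vtg5 the sign was opposite to that in all 6 libraries, where mutant replicate 3 lowers the mutant mean. The value for esr1 was -0.07 ± 0.38 (interval -0.99 to 0.85, adjusted p = 0.947) and for fam20cl -0.24 ± 0.43 (interval -1.29 to 0.82, adjusted p = 0.817). The median over the 10 genes was -0.01, and over all genes tested it was -0.03.

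The receptor gene esr2b was the member nearest to a difference between genotypes. In the 5 libraries its log2 fold change was -0.78 ± 0.37 (95% interval -1.66 to 0.11, unadjusted p = 0.0766, adjusted p = 0.337). Under TMM and as CPM of named counts it was the 1 member of 10 whose groups did not overlap, with and without mutant replicate 3. Under TMM the groups did not overlap for 27.8% of all genes in 6 libraries (12.8% lower and 15.1% higher in mutants) and for 38.3% in 5 (18.5% lower and 19.8% higher). As CPM of counts without vitellogenin its levels were 213, 221 and 52.0 in mutant replicates 1 to 3, against 330.7, 375.6 and 209.6 in WT replicates 1 to 3, and on that scale the groups overlapped.

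On that scale 3 vitellogenins separated once mutant replicate 3 was left out, all with the mutants higher. Besides vtg1, they were vtg2, at 126800 and 153100 in mutant replicates 1 and 2, against 95350, 120900 and 96050 in WT replicates 1 to 3, and vtg5, at 149400 and 225200 in the mutants, against 116200, 141200 and 116800 in WT. Over all 13027 genes 33.2% did not overlap on that scale, 23.3% with the mutants higher and 9.9% with the mutants lower. With all 6 libraries 0 of the 10 members separated on it. The library left out was the one that lacks vitellogenin, so the separation of these 3 copies is a description and no test. The copies share 1 denominator and are not separate observations, and 3 of 10 members is close to the share over all genes.

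**Figure D3:**
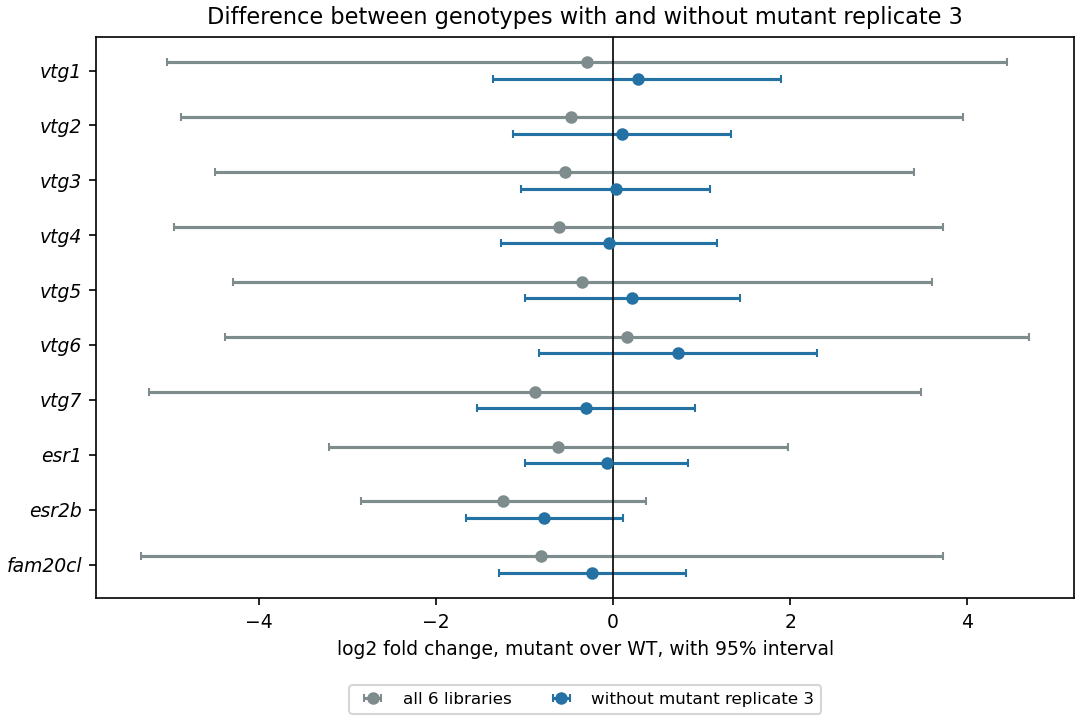
Log2 fold change of each gene, mutant over WT, with its 95% interval, from all 6 libraries (grey) and without mutant replicate 3 (blue). All 20 intervals include 0, and the grey interval of vtg7 runs from -5.24 to 3.48.

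Of the other sex steroid receptors, esr2a, the second zebrafish oestrogen receptor beta, was even across the libraries under TMM. Its level was 5.81, 7.97 and 5.62 CPM in mutant replicates 1 to 3, against 5.94, 7.95 and 5.39 CPM in WT replicates 1 to 3 (log2 fold change 0.01 ± 0.29, 95% interval -0.67 to 0.69, edgeR adjusted p = 0.989). Mutant replicate 3 was inside the range of the others under TMM. As CPM of named counts it was the highest library, a scale on which its lack of vitellogenin raises the other genes. The androgen receptor gene ar stood at 45.7, 22.02 and 2.75 CPM in the mutants, against 50.1, 79.2 and 54.9 CPM in WT. The 3 mutant libraries were below the 3 WT libraries (-1.39 ± 0.86, edgeR adjusted p = 0.417), as for 12.8% of all genes. The membrane oestrogen receptor gene gper1 had no count in any library, and the progesterone receptor gene pgr was at most 0.214 CPM. Of the 6 receptors, 4 passed the filter and 0 were called, with 0 at an unadjusted p under 0.05.

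The FAM20 genes differed from one another in mutant replicate 3. The levels that follow are under TMM. Without the scaling factor mutant replicate 3 stands higher against the other libraries, which narrows the gap of fam20a. The gene fam20a, whose product in mammals is a partner of FAM20C that activates it, stood at 62.5, 69.4 and 3.93 CPM in the mutants, against 29.8, 71.2 and 89.2 CPM in WT, 7.57-fold below the lowest other library in mutant replicate 3. The gene fam20b, a xylose kinase gene in mammals, stood at 6.48, 7.23 and 7.83 CPM in the mutants, against 7.76, 5.65 and 6.28 CPM in WT, with no such gap. The gene fam20cb was highest in mutant replicate 3, at 4.22, 5.38 and 7.94 CPM in the mutants, against 5.75, 5.60 and 4.77 CPM in WT. Of the 5 members 0 were called in either comparison, with 0 at an unadjusted p under 0.05, and the median log2 fold change was -0.49 in 6 libraries and -0.17 without mutant replicate 3.

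**Figure D4:**
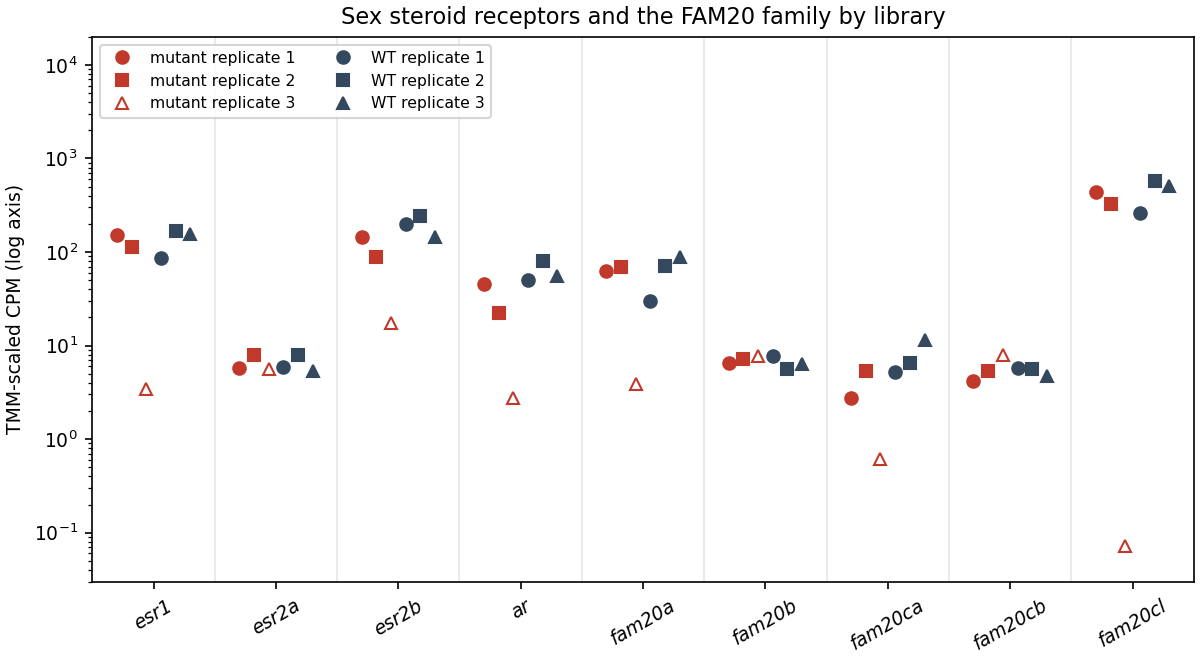
Level of 4 sex steroid receptor genes and 5 FAM20 genes in each library, as TMM-scaled CPM on a log axis, with symbols as in the plot of all members. In mutant replicate 3, esr2a, fam20b and fam20cb stand at 5.62, 7.83 and 7.94 CPM among or above the other libraries, and esr1, esr2b, ar, fam20a, fam20ca and fam20cl lie below them.

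Genes were ranked by the log2 gap between the lowest of the other 5 libraries and mutant replicate 3, on CPM plus 0.5. The ranking covered 9106 genes with a mean above 2 CPM. Mutant replicate 3 was set apart because it lacks vitellogenin, so the top ranks of the vitellogenins follow from that choice. With 0.5 CPM added, a gene at a low level cannot reach a large gap, so the rank also depends on level. The 7 vitellogenins and fam20cl held ranks 1 to 8, esr1 rank 16 and esr2b rank 56. The next gene was nots, with a gap of 8.83. It encodes nothepsin, an aspartic protease made in zebrafish liver. Its level was 2629, 1960 and 0.641 CPM in mutant replicates 1 to 3, against 517, 1315 and 1175 CPM in WT replicates 1 to 3. Without mutant replicate 3, both mutant libraries were above all 3 WT libraries (log2 fold change 1.18 ± 0.49, 95% interval -0.02 to 2.37, edgeR adjusted p = 0.297), where 38.3% of all genes had groups that did not overlap.

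The cytochrome P450 gene cyp2k6 followed with a gap of 7.51. It stood at 108, 95.9 and 0.0285 CPM in the mutants, against 204, 219 and 116 CPM in WT, and its 2 counts in mutant replicate 3 set the last mutant value. The unnamed gene si:dkey-4c23.3 had a gap of 6.60, at 60.4, 95.7 and 0.128 CPM in the mutants, against 96.7, 116.7 and 213.8 CPM in WT. The older symbols of vtg7 and vtg2 carry the same clone prefix. The other genes named by this rank were BX539332.1 (gap 5.09), the cytosolic branched-chain aminotransferase gene bcat1 (4.73), rtn1a (4.64), the C-reactive protein gene crp2 (4.48), the mitochondrial carrier gene slc25a38a (4.09), mthfsd (4.07) and rcn3 (3.95). As CPM of named counts, nots, cyp2k6, si:dkey-4c23.3 and BX539332.1 kept ranks 9 to 12, while rtn1a moved to rank 21 and rcn3 to rank 30. None of the 10 was called between genotypes by edgeR. In 6 libraries 1 (crp2) had an unadjusted p under 0.05, as did 19.1% of all genes. The 10 were picked for a low value in 1 mutant library, which widens the spread within the mutants. These counts therefore say nothing about a difference between genotypes.

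**Figure D5:**
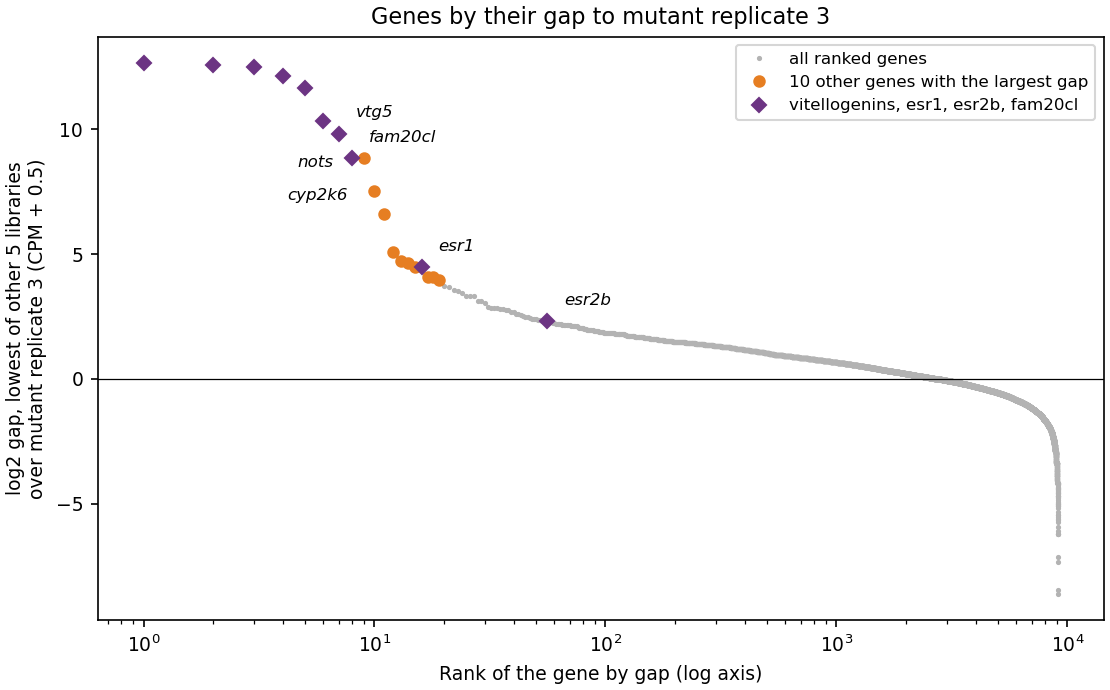
Log2 gap between the lowest of the other 5 libraries and mutant replicate 3 (TMM-scaled CPM plus 0.5), for 9106 genes in order of their rank, which is on a log axis. The members (purple) hold ranks 1 to 8, 16 and 56, and the 10 other genes with the largest gaps are in orange. Mutant replicate 3 was set apart for its lack of vitellogenin, so the ranks of the vitellogenins follow from that choice.

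In the RefSeq annotation of assembly GRCz12tu, which is not the build of the counts, vtg5, vtg4, vtg6, vtg7 and vtg2 follow one another on 1 chromosome, and fam20cl lies on their far side with 6 protein-coding genes between it and vtg2, among them a further copy, vtg8, which is not analysed here. The copy vtg3 lies on another chromosome, and vtg1 had no entry under its symbol. The gene si:rp71-23d18.4, between vtg5 and vtg4, had a level of at most 0.0612 CPM in any library. Among other genes looked at around these copies, polr3f stood at 3.55, 6.90 and 3.25 CPM in the mutants, against 3.26, 3.14 and 4.54 CPM in WT. The gene kat14 stood at 4.404, 5.01 and 4.83 CPM in the mutants, against 2.64, 1.78 and 3.42 CPM in WT. Neither had the gap in mutant replicate 3 that the vitellogenins and fam20cl had. The gene rrbp1b stood at 215, 262.7 and 106.2 CPM in the mutants, against 160.2, 250.5 and 328.7 CPM in WT. Under TMM it was lowest in mutant replicate 3, 1.51-fold below the lowest other library. This order depended on the scaling, and as CPM of named counts mutant replicate 3 was the highest library for it.

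A pair of receptor genes for yolk uptake were low in mutant replicate 3 and also in 2 vitellogenin-rich libraries. The receptor gene lrp13, a vitellogenin receptor of oocytes in other teleost fishes, stood at 11.3, 0.0822 and 0.0142 CPM in mutant replicates 1 to 3, against 10.3, 13.0 and 0.168 CPM in WT replicates 1 to 3. The very-low-density lipoprotein receptor gene vldlr stood at 4.47, 0.164 and 0.342 CPM in the mutants, against 5.80, 7.37 and 0.449 CPM in WT. The 11 oocyte and ovary markers in the table summed to 186.6, 1.19 and 0.171 CPM in the mutants, against 110.9, 131.9 and 1.57 CPM in WT, with 5 of the 11 at 0 in mutant replicate 3. Mutant replicate 2 and WT replicate 3 were rich in vitellogenin with ovarian markers at or under 1.57 CPM in sum, and lrp13 and vldlr were low in the same 3 libraries as these markers. The part of ovarian RNA in these values was not tested. The lysosomal protease gene ctsla stood at 94.6, 40.6 and 174 CPM in the mutants, against 69.7, 99.8 and 58.4 CPM in WT. Of the 6 tested genes of yolk uptake and cleavage, 0 were called in either comparison, where edgeR called 0.241% and 0.161% of all genes.

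Among 13 tested oestrogen-responsive genes, of which 10 are the members themselves, edgeR called 0 and 1 was lower at an unadjusted p under 0.05 in 6 libraries, where 8.29% of all genes were. In the 5 libraries without mutant replicate 3, 0 were lower at that p. The lower gene was greb1, an oestrogen target in mammalian cells, at 0.734, 1.81 and 0.883 CPM in the mutants, against 1.77, 2.82 and 3.98 CPM in WT (log2 fold change -1.32 ± 0.51, edgeR adjusted p = 0.227). The lysosomal protease gene ctsd was highest in mutant replicate 3, at 44.0, 42.4 and 148.5 CPM in the mutants, against 34.4, 33.2 and 66.0 CPM in WT.

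Genes of steroid synthesis and inactivation bear on how much oestrogen reaches the liver's receptors. Of 17 tested, edgeR called 0 in 6 libraries. At an unadjusted p under 0.05, 3 were lower and 0 higher in mutants, where 8.29% of all genes were lower and 10.8% higher. The median log2 fold change was -0.55, against 0.04 over all genes. Without mutant replicate 3, 6 of 19 were lower and 0 higher at that p, where 8.59% of all genes were lower and 8.6% higher, and edgeR again called 0. The sex hormone-binding globulin gene shbg stood at 222, 133.5 and 239 CPM in the mutants, against 201, 204 and 264 CPM in WT. The peroxisomal dehydrogenase gene hsd17b4 stood at 120.7, 93.9 and 100.5 CPM in the mutants, against 123, 162 and 131 CPM in WT.

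The 3 lower genes in 6 libraries were cytosolic sulphotransferases, a family that conjugates oestrogens, other steroids and phenols. The level of sult1st1 was 2.45, 1.36 and 2.22 CPM in the mutants, against 9.39, 8.99 and 21.3 CPM in WT (log2 fold change -2.72 ± 0.45, edgeR adjusted p = 0.0683). That of sult1st2 was 0.612, 0.205 and 0.299 CPM in the mutants, against 3.21, 2.35 and 1.57 CPM in WT (-2.72 ± 0.57, edgeR adjusted p = 0.0885). For both, mutant replicate 3 stood with the other mutants, unlike for the vitellogenins. DESeq2's Wald test called both (adjusted p = 5.52e-06 for sult1st1 and 0.000357 for sult1st2), and edgeR without the filter called sult1st1 (adjusted p = 0.0112). DESeq2's Wald test called 1082 of all 12889 genes.

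The list did not hold every gene of these families, so all of their tested genes were also looked at, a choice made after the values were seen. Of 13 sulphotransferase genes edgeR called 0 in 6 libraries and DESeq2's Wald test called 3 (sult1st1, sult1st2 and sult1st5). Over all 12889 genes edgeR called 31 and DESeq2's Wald test called 1082. By edgeR 2 of the higher genes and 3 of the lower ones had an unadjusted p under 0.05, where 10.8% of all genes were higher and 8.29% lower, and the median was -0.31. The higher ones included sult1st5, at 3.12, 1.40 and 4.64 CPM in the mutants, against 0.144, 0.366 and 0.168 CPM in WT (log2 fold change 3.74 ± 0.65, edgeR adjusted p = 0.0683, DESeq2 adjusted p = 3.99e-05). Genes of this family thus lay on both sides of 0.

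Of 7 hydroxysteroid 17-beta dehydrogenase genes, edgeR called 0 in 6 libraries and 1 without mutant replicate 3, where it called 0.241% and 0.161% of all genes. DESeq2's Wald test called 2 in 6 libraries, hsd17b7 and hsd17b14, and 1, hsd17b7, without mutant replicate 3. That test called 1082 of all 12889 genes in 6 libraries and 904 of 13027 without mutant replicate 3. The gene hsd17b14 stood at 9.42, 8.75 and 14.6 CPM in the mutants, against 4.41, 3.50 and 6.17 CPM in WT (log2 fold change 1.22 ± 0.34 in 6 libraries, edgeR adjusted p = 0.139, DESeq2 adjusted p = 0.0419). The gene called by edgeR was hsd17b7, whose product in mammals reduces oestrone to oestradiol and also acts in cholesterol synthesis. Its level was 43.1, 44.6 and 7.203 CPM in the mutants, against 1.05, 0.628 and 1.23 CPM in WT. All 3 mutant libraries were above all 3 WT libraries, as for 15.1% of all genes, and mutant replicate 3 was the lowest of the mutants. The log2 fold change was 5.47 ± 0.35 without mutant replicate 3 (edgeR adjusted p = 0.00636) and 5.02 ± 0.77 in 6 libraries (edgeR adjusted p = 0.0654, DESeq2 adjusted p = 3.33e-10). With 1 further library left out of the 5 it ran from 5.23 to 5.68, and the call was lost without mutant replicate 2 (edgeR adjusted p = 0.0794), WT replicate 1 (0.067) or WT replicate 2 (0.0502).

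Genes of the secretory pathway, through which vitellogenin leaves the hepatocyte, summed to 3918, 6661 and 3177 CPM in mutant replicates 1 to 3, against 4312, 5011 and 5133 CPM in WT replicates 1 to 3, over 24 genes. Of these 0 were called in either comparison, with 0 at an unadjusted p under 0.05. The sum mixes genes that stood differently in mutant replicate 3. Under TMM all but sec23b, sec24d, pdia4, pdia6, hspa5, hsp90b1, calr, calr3b and canx were lowest in it, as were 24.2% of all genes. The largest gaps to the lowest other library were 5.26-fold (ssr3), 4.92-fold (srprb), 4.36-fold (ssr2) and 3.79-fold (sec61a1). Without its scaling factor mutant replicate 3 stands higher, and the cause was not tested. The translocon gene sec61a1 stood at 771.5, 614.9 and 162 CPM in the mutants, against 977, 1061 and 1090 CPM in WT, and the chaperone gene hspa5 at 332, 1514 and 896 CPM in the mutants, against 354, 438 and 772 CPM in WT. The large lipid transfer proteins related to vitellogenin did not have its gap. The apolipoprotein B gene apobb.1 stood at 2143, 1146 and 1620 CPM in the mutants, against 2831, 1881 and 1638 CPM in WT, and apoba at 799, 580 and 569 CPM in the mutants, against 667, 681 and 535 CPM in WT. Among 15 oestrogen receptor cofactors and chaperones, edgeR called 0 in 6 libraries, and the median log2 fold change was -0.04. At an unadjusted p under 0.05, 3 were above and 2 below WT, where 10.8% of all genes were above and 8.29% below. In the 5 libraries the counts were 1 above and 2 below WT, where the shares over all genes were 8.6% and 8.59%. The product of the chaperone gene hsp90ab1 holds steroid receptors ready for hormone. The gene stood at 3015, 1189 and 942 CPM in the mutants, against 3920, 4127 and 3602 CPM in WT. Under TMM all 3 mutant libraries were below all 3 WT libraries, as for 12.8% of all genes. As CPM of named counts mutant replicate 3 was above WT replicate 3, so the groups overlapped. The gene pgrmc1 stood at 93.8, 87.1 and 110.9 CPM in the mutants, against 93.5, 90.3 and 104.9 CPM in WT.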

How the data were processed

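RNA-seq gene counts of 3 mutant and 3 WT zebrafish liver libraries were used. The authors deposited whole-number read counts per gene symbol, not normalized. The submitters' processing notes name build GRCz11, featureCounts 1.5.2, STAR 2.7 and Trimmomatic 0.36. Strand setting and treatment of multiply aligned reads: not given in the sources used here. The 1 row with no gene name held 0.568% to 1.02% of a library's counts and was left out, and every column of counts was matched to a sample.

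Counts were tested with edgeR 4.0.16 in R 4.3.3 (filterByExpr, TMM, robust quasi-likelihood test, mutant over WT), with Benjamini-Hochberg adjustment over all genes, a threshold of 0.05, and SE taken as the absolute log2 fold change over the root of the F statistic. Intervals of fold changes are 95% intervals from the t distribution of that test. The scripts were tested on simulated data. Alternatives used DESeq2 1.42.0 and limma 3.58.1. Shares of vitellogenin were compared by exact permutation. No 2 libraries agreed within sampling noise.

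The members and gene lists were chosen with earlier results of these data known. Beside the members, the genes named are the 2 of each list with the highest mean CPM where none was called, and the 10 other genes with the largest gap to mutant replicate 3. Others were chosen after their values were seen. Levels of different genes were not divided by length and are not compared as such. Gene order is from RefSeq, where 9 of the 10 members matched by symbol.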

Additional observations from a re-analysis of the deposited data

How the results depend on the processing

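In every alternative run, 0 of the 10 members were called, with 6 and with 5 libraries. In the comparison of 6 libraries, esr2b had an unadjusted edgeR p under 0.05 in the runs with the replicate number as a block and without mutant replicate 1. No member passed that p in the other runs of that comparison. The number of calls over all genes was not stable. In 6 libraries it was 31 (15 higher), 472 with total counts (397 higher, under a shift of 0.97 in the median of all genes), 211 without the filter, 1082 by DESeq2's Wald test and 2 to 77 with 1 library left out (77 without mutant replicate 1, 2 without mutant replicate 2, 3, 4 and 5 without WT replicates 1 to 3). Without mutant replicate 3 it was 21, 162 with total counts, 212 without the filter, 904 by DESeq2 and 0 to 44 with a further library left out (39 and 2 without mutant replicates 1 and 2, 0, 0 and 44 without WT replicates 1 to 3), where a lone mutant library is assumed to vary like WT.

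The replicate number as a block gave 2 calls over all genes, with no member among them. In that fit the log2 fold changes of vtg6 and nots, -0.90 and -0.26, were opposite in sign to the main fit. Deviations of same-numbered libraries correlated at 0.298, -0.211 and 0.320 for numbers 1 to 3, and not every library correlated best with its own number. With 3 libraries a group these values cannot decide whether the numbers pair the libraries, which the labels do not say. By limma-voom vtg6 was at -2.84 and nots at -1.68. With total counts and without mutant replicate 3, vtg4 was at 0.04 and esr1 at 0.02. The cause was not tested.

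With 1 of 6 libraries left out, log2 fold changes ran from -1.53 to 0.28 for vtg1, -1.15 to 0.10 for vtg2, -1.15 to 0.03 for vtg3, -0.85 to 0.22 for vtg5, -1.11 to 0.73 for vtg6, -0.96 to 0.04 for fam20a and -0.04 to 1.18 for nots. With 1 of 5 left out they ran from -0.53 to 0.80 for vtg1, -0.15 to 0.32 for vtg2, -0.14 to 0.20 for vtg3, -0.20 to 0.10 for vtg4, -0.11 to 1.26 for vtg6, -0.33 to 0.14 for esr1 and -0.31 to 0.38 for fam20a. The difference in vitellogenin share ran from -19.6 to 8.98 percentage points, and in share of vitellogenin counts from -19.3 to 0.218 for vtg1, -0.0713 to 1.44 for vtg3 and -1.11 to 2.53 for vtg6. The values without a scaling factor for mutant replicate 3 were added after the data were seen.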
